A study of Homo sapiens with 14 samples.

Results

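The genes described here are 10 genes of bone morphogenetic protein (BMP) signaling in MDA-MB-231 cells: the ligands BMP2 and BMP4, the antagonists NOG and GREM1, the inhibitory SMADs SMAD6 and SMAD7, and the targets ID1, ID2, ID3, and ID4. They were taken by gene symbol from a table of 19410 genes, and all 10 are listed in it. BMP2 was the starting point, because of its mean log2 change over the MLL1-KO lines, 4.98. That was the highest among the genes called higher in both of these lines by the thresholds given below. ACTG2 followed with 4.78 and AKR1C3 with 4.52. The levels of BMP2 in the MLL1-KO lines against the other cells are therefore a description with no test, and the question tested was whether the other members differed as well.

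The RNA came from MDA-MB-231, an established triple-negative breast cancer (TNBC) cell line, either unedited (parental) or after CRISPR/Cas9 editing, which gave 6 lines. SAP30-KO1 and SAP30-KO2 lack SAP30, a subunit of the SIN3 corepressor complex. The lines labelled SIN3A+SIN3B-DKO1 and SIN3A+SIN3B-DKO2, written here as SIN3A/3B-DKO1 and SIN3A/3B-DKO2, were edited in both scaffold proteins of that complex, and MLL1-KO1 and MLL1-KO2 in MLL1 (KMT2A), a histone H3 lysine 4 methyltransferase. Each of the 7 conditions was sequenced in 2 libraries, 14 in all, without any treatment. The edited lines had been through puromycin selection and were mixtures of several knockout cells that had each been expanded, whereas the labels give no editing control for the parental libraries. All 6 comparisons with parental cells share those 2 parental libraries. The labels do not say that the 2 libraries of a condition came from separate cultures, so the p values measure the spread between libraries, which may be technical.

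BMP2 and BMP4 are secreted ligands of the TGF-β family that bind type I and type II receptor kinases on the cell surface. The receptors phosphorylate SMAD1, SMAD5, and SMAD9, which enter the nucleus with SMAD4 and activate target genes, among them ID1 to ID4 and the pathway's own inhibitors SMAD6 and SMAD7. Noggin, the product of NOG, and gremlin 1, the product of GREM1, bind BMP ligands outside the cell and keep them from the receptors. ID proteins lack a DNA-binding region and hold E proteins and other basic helix-loop-helix factors off DNA, and in breast cancer cells they are studied for their part in differentiation, self-renewal, and metastasis.

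The libraries held from 18415036 to 23162682 reads, recovered from the steps of the deposited values, which are TPM, a measure of transcript abundance that takes transcript length into account. The mesenchymal marker VIM (5741 to 8805 TPM) and CD44, KRT8, and KRT18 were present in every library, whereas the estrogen and progesterone receptor genes ESR1 and PGR reached at most 0.191 and 0.139 TPM. Markers of leukocytes, endothelial cells, and adipocytes added up to 3.61 and 3.67 TPM in the parental libraries and to 8.51 to 9.40 TPM in the MLL1-KO libraries, mostly from LYZ and PECAM1. The sums were 4.96 to 7.35 TPM in the SAP30-KO libraries and 3.56 to 5.37 TPM in the SIN3A/3B-DKO libraries. The part of these markers in the results was not tested. SAP30 mRNA was 23.6 and 20.9 times lower in the SAP30-KO lines than in parental cells, and MLL1 mRNA was 3.19 and 1.98 times lower in MLL1-KO1 and MLL1-KO2, but also 1.93 and 1.58 times lower in the SAP30-KO lines. SIN3B mRNA was 1.54 and 1.64 times lower in the lines labelled SIN3A/3B-DKO, whereas SIN3A mRNA was not reduced there (1.39 and 1.25 times the parental level), so mRNA does not check that label. Edits that disrupt a reading frame need not lower mRNA.

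Of the 9 members other than BMP2, 7 reached 1 TPM in 2 or more libraries, the filter on low values, and were tested. The remaining members, GREM1 and ID2, were at or near 0 in every library. A gene was called when its adjusted p in limma was under 0.05 and its change was at least 1.5-fold on the log2(TPM + 0.5) scale. SAP30-KO1 and SAP30-KO2 had 6 calls each among the 7, beside 15.7% and 15.6% of the 13540 genes tested. All 7 were called in either SIN3A/3B-DKO line, beside 16.4% (SIN3A/3B-DKO1) and 13.6% (SIN3A/3B-DKO2). MLL1-KO1 had 4 calls and MLL1-KO2 had 5, beside 23.2% and 25.2%. In both lines of a genotype, ID1 and ID3 fell and SMAD6, SMAD7, and ID4 rose with loss of SAP30 (6.79% and 6.17% of all genes fell and rose). BMP4, SMAD6, ID1, and ID3 fell and NOG, SMAD7, and ID4 rose in both lines labelled SIN3A/3B-DKO (5.99% and 4.70%). With loss of MLL1, ID3 and ID4 fell and NOG and SMAD7 rose in both lines (11.4% and 5.00%). The median log2 change of the 7 was 0.49, -0.75, and -0.31 in the 3 genotypes in that order, beside 0.02, 0.00, and -0.06 over all genes tested. The members were chosen with results of these data known, and ID3 passed the filter through the parental libraries and 1 library of each SIN3A/3B-DKO line, so these counts describe the members and support nothing further. In bulk RNA, fewer cells that express a gene and less RNA per cell cannot be told apart.

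**Figure D1:**
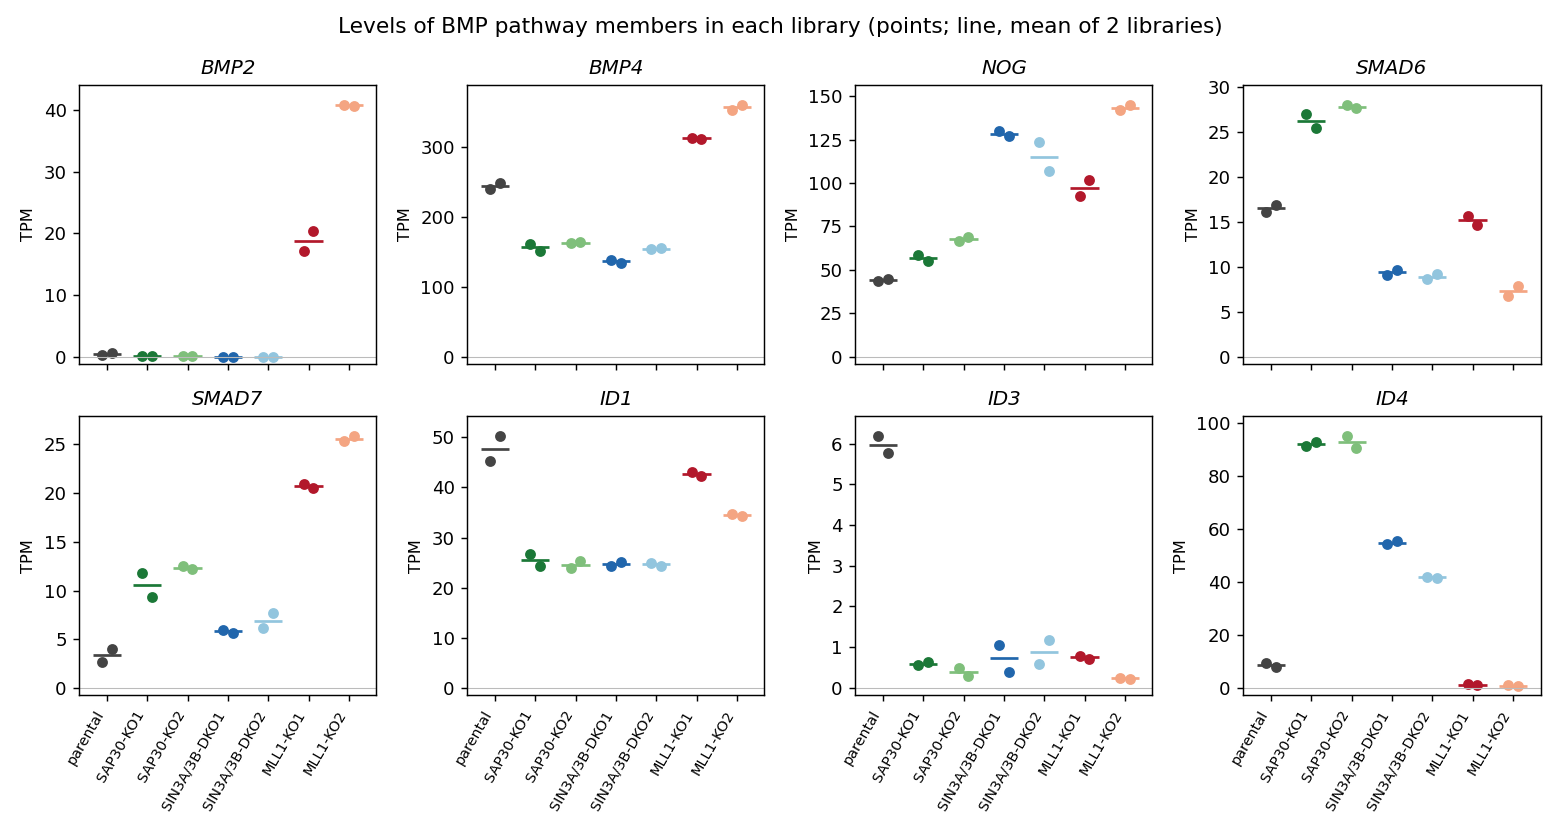
Level in TPM (linear axis) of the 8 members that passed the filter on low values. Each point is 1 library and each line the mean of 2. BMP2 stood at 17.1 to 40.8 TPM in MLL1-KO libraries and at or below 0.544 TPM in all others, SMAD7 was higher in every edited line than in parental cells, ID3 was lower in every edited line, and ID4 went up in 4 lines and down in the MLL1-KO lines.

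BMP2 was close to 0 in parental cells and reached moderate levels in the MLL1-KO lines alone. Its gene lies on chromosome 20 (GRCh37, chr20:6748333-6760893, plus strand). The parental libraries had 0.265 and 0.544 TPM, or 6 and 12 reads. MLL1-KO1 had 17.1 and 20.4 TPM (440 and 516 reads) and MLL1-KO2 had 40.8 and 40.7 TPM (870 and 920 reads), which put the means 46.4 and 100.7 times above the parental mean. The other 4 edited lines lay below parental cells, so that no library of theirs overlapped the parental ones. SAP30-KO1 had 1 read in each library (0.0441 and 0.0409 TPM) and SAP30-KO2 had 1 and 3 reads (0.0380 and 0.116 TPM). Relative to library totals these were 0.107 and 0.193 of the parental level, values that rest on few reads. They are descriptions with no test, since the parental values of BMP2 took part in the choice of the members. The SIN3A/3B-DKO lines had 0 reads in all of their libraries, so with 3 reads in each library as the limit that a count of 0 allows, BMP2 was at least 3.44-fold lower in SIN3A/3B-DKO1 than in parental cells and at least 3.50-fold lower in SIN3A/3B-DKO2. These values depend on the second parental library, the higher of the pair. With the first alone as the parental level, BMP2 was 70.8 and 153.7 times higher in MLL1-KO1 and MLL1-KO2, 0.1605 and 0.291 of the parental level in the SAP30-KO lines, and at least 2.25-fold and 2.29-fold lower in the SIN3A/3B-DKO lines. With the second alone, the MLL1-KO values were 34.5 and 74.9 times. The median of the neighbouring genes of BMP2, on the log2 scale, differed from parental by 0.14 and 0.19 in the 2 MLL1-KO lines. That window spanned up to 51 genes, and BMP2 itself, with changes of 4.43 and 5.53, was left out of the median.

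BMP4 was far more abundant than BMP2 in every library and differed less between cells. It lies on the minus strand of chromosome 14 (GRCh37, chr14:54416454-54425479). The parental libraries had 240.4 and 249 TPM, a level above 95.4% of the genes with any reads. SAP30-KO1 had 162 and 152 TPM, SAP30-KO2 163 and 164, SIN3A/3B-DKO1 139 and 135, and SIN3A/3B-DKO2 154 and 155.5. All 8 of these libraries lay below both parental ones. BMP4 fell in SAP30-KO1 (log2 -0.64, SE 0.03, adjusted p = 1.22e-07), in SIN3A/3B-DKO1 (-0.84, SE 0.03, adjusted p = 2.86e-08), and in SIN3A/3B-DKO2 (-0.66, SE 0.03, adjusted p = 1.42e-07), while in SAP30-KO2 the value of -0.58 missed the fold minimum. MLL1-KO1 had 313.5 and 312 TPM and MLL1-KO2 354 and 361, all above the parental libraries. Their log2 differences of 0.35 (95% interval 0.28 to 0.43) and 0.55 (0.47 to 0.62) did not reach 1.5-fold, although the adjusted p values were 5.74e-06 and 1.5e-07. Both values nearest to the fold minimum, in SAP30-KO2 and MLL1-KO2, passed it with median-ratio scaling (-0.61 and 0.59). BMP2 and BMP4 mRNA together came to 240.7 and 249.8 TPM in parental cells and to 330.7 to 401 TPM in the MLL1-KO lines. The share of BMP2 in that sum was 0.11% and 0.22% in parental cells and was 5.18% and 6.14% (MLL1-KO1) or 10.3% and 10.1% (MLL1-KO2), so BMP4 remained the main BMP ligand mRNA of these pairs. Exons of BMP4 share 506 bases, or 16.3% of their length, with a gene on the other strand that the table does not list, and the strand setting of the read counting is not given in the sources used here.

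NOG, the antagonist, was higher in every edited line. It is a gene of 1 exon on chromosome 17 (GRCh37, chr17:54671060-54672972, plus strand). The parental libraries had 43.3 and 44.6 TPM, SAP30-KO1 had 58.3 and 55.2, and SAP30-KO2 had 66.5 and 68.7. SIN3A/3B-DKO1 had 129.8 and 127 TPM, SIN3A/3B-DKO2 had 124 and 107, MLL1-KO1 had 92.8 and 102, and MLL1-KO2 had 142 and 145. No edited library overlapped the parental ones. The rise was called in 5 lines: log2 0.62 in SAP30-KO2 (SE 0.07, adjusted p = 1.75e-05), 1.54 and 1.38 in the SIN3A/3B-DKO lines (adjusted p = 3.53e-08 and 8.58e-08), and 1.14 and 1.70 in the MLL1-KO lines (adjusted p = 8.11e-08 and 3.04e-09). In SAP30-KO1 the difference of 0.36 (0.22 to 0.51) was below 1.5-fold. GREM1, the other antagonist, had 1 read in 1 library each of SAP30-KO1 and SIN3A/3B-DKO1 and 0 reads in all others, where 3 reads would be at most 0.107 TPM.

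The ratio of BMP4 to NOG mRNA was lower in all edited lines than in parental cells. It was 5.55 and 5.59 TPM of BMP4 per TPM of NOG in the parental libraries. SAP30-KO1 had 2.75 and 2.78, SAP30-KO2 had 2.39 and 2.45, MLL1-KO1 had 3.06 and 3.38, and both MLL1-KO2 libraries had 2.49. The lowest ratios were those of SIN3A/3B-DKO1 (1.06 and 1.07) and SIN3A/3B-DKO2 (1.24 and 1.46). The parts differed between genotypes. In the SIN3A/3B-DKO lines BMP4 was lower and NOG higher, whereas in the MLL1-KO lines both were above parental levels and NOG by more. The ratios have no test of their own.

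**Figure D2:**
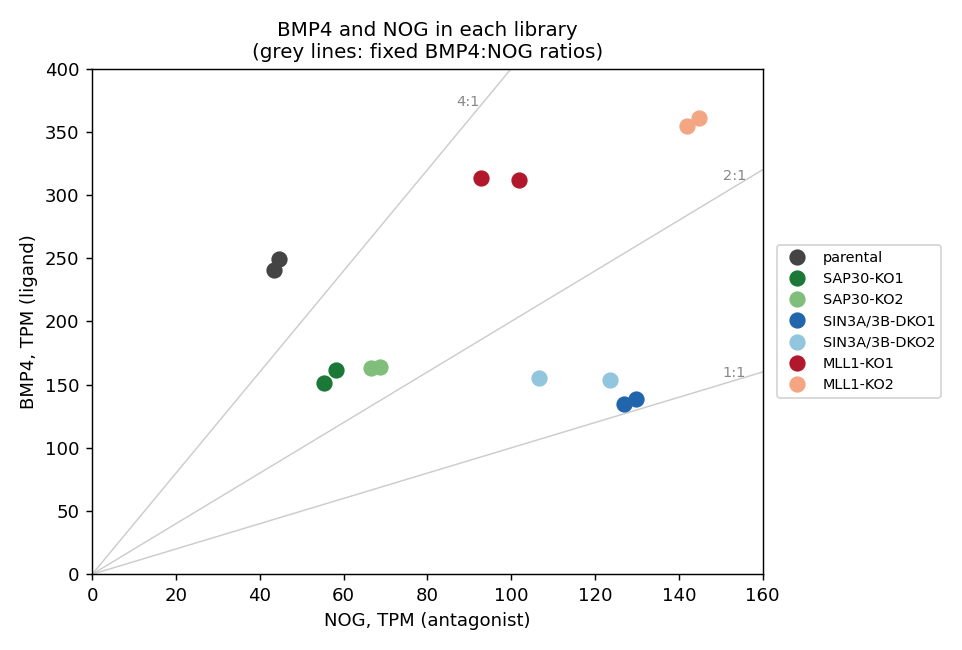
BMP4 (vertical axis, TPM) against NOG (horizontal axis, TPM) in the 14 libraries, 1 point each, colored by condition, with grey lines at fixed ratios of BMP4 to NOG. The parental libraries lie above the line of 4 to 1 and all edited libraries below it, the SIN3A/3B-DKO libraries closest to the line of 1 to 1.

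SMAD6 and SMAD7, inhibitors inside the cell that are themselves targets of the pathway, both rose in the SAP30-KO lines, while SMAD6 fell and SMAD7 rose in the SIN3A/3B-DKO lines and in MLL1-KO2. SMAD6, which acts mainly on BMP receptors, lies on chromosome 15 (GRCh37, chr15:66994574-67075187, plus strand). Parental libraries had 16.1 and 16.9 TPM of SMAD6. SAP30-KO1 had 26.9 and 25.4 TPM and SAP30-KO2 had 28.0 and 27.6, above all other libraries. SIN3A/3B-DKO1 had 9.10 and 9.62 TPM and SIN3A/3B-DKO2 had 8.58 and 9.15, below all parental libraries. SMAD6 thus rose in the SAP30-KO lines (log2 0.65 and 0.74, SE 0.08, adjusted p = 4.3e-05 and 1.66e-05) and fell in the SIN3A/3B-DKO lines (-0.79 and -0.86, SE 0.08, adjusted p = 1.03e-05 and 6.28e-06). In SAP30-KO1 the change was 0.54, below the fold minimum, once the median of neighbouring genes was subtracted. The MLL1-KO lines differed from each other: MLL1-KO1 had 15.6 and 14.7 TPM, with a log2 difference from parental of -0.12 (-0.29 to 0.05, adjusted p = 0.206), and MLL1-KO2 had 6.69 and 7.80 TPM and a fall of 1.14 (SE 0.08, adjusted p = 2.83e-07). With quantile normalization the value in MLL1-KO1 was 0.05.

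SMAD7, which inhibits both the BMP and the TGF-β branch, rose in all 6 lines, and ID3 fell in all 6, 1 of the 7 members each way beside 0.945% and 2.67% of all genes tested. The calls of ID3 against parental are descriptions, because of how it passed the filter on low values. SMAD7 lies on the minus strand of chromosome 18 (GRCh37, chr18:46446223-46477335). Parental libraries had 2.71 and 4.02 TPM. The highest values were those of MLL1-KO1 (20.9 and 20.5 TPM) and MLL1-KO2 (25.4 and 25.8 TPM), with means 6.16 and 7.61 times the parental mean. SAP30-KO1 had 11.8 and 9.36 TPM, SAP30-KO2 12.5 and 12.2, SIN3A/3B-DKO1 5.98 and 5.66, and SIN3A/3B-DKO2 6.11 and 7.68. All 12 edited libraries lay above both parental ones. The log2 changes were 1.53 and 1.75 in the SAP30-KO lines (SE 0.16, adjusted p = 1.38e-05 and 4.8e-06), 0.73 and 0.95 in the SIN3A/3B-DKO lines (adjusted p = 0.00228 and 0.000477), and 2.48 and 2.78 in the MLL1-KO lines (adjusted p = 1.73e-07 and 5.92e-08). Without the first parental library, the value in SIN3A/3B-DKO1 was 0.48 and no longer reached 1.5-fold.

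**Figure D3:**
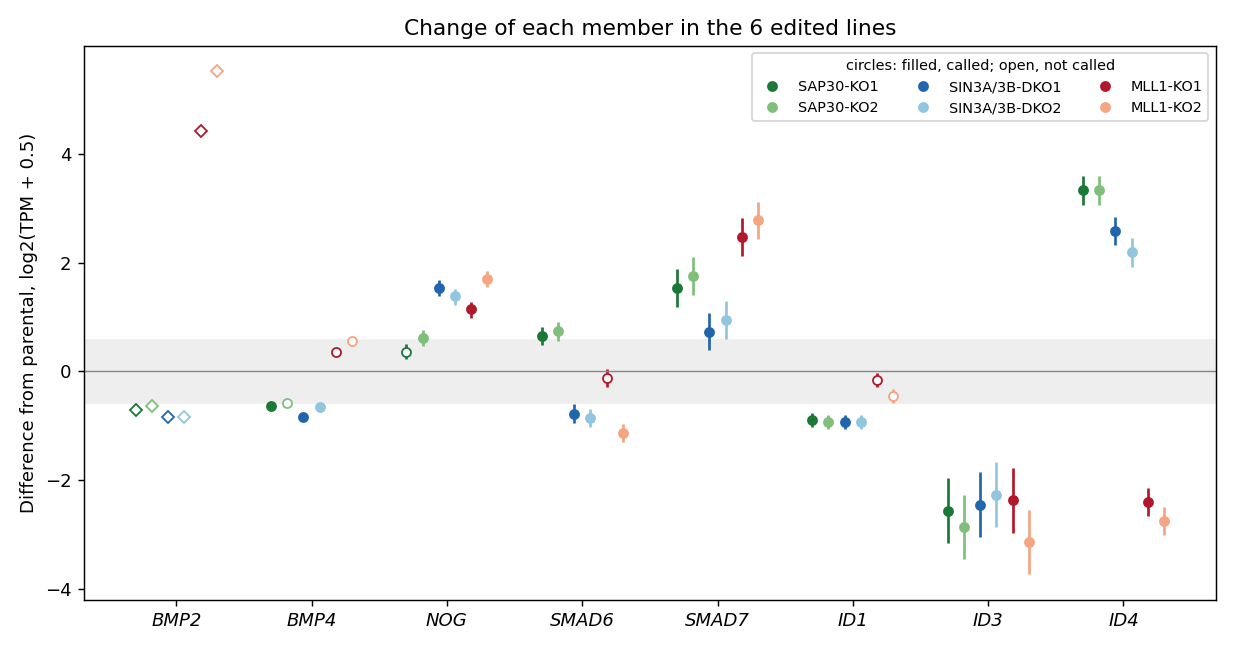
Difference of each member from parental cells on the log2(TPM + 0.5) scale (vertical axis) in the 6 edited lines, with 95% intervals from the limma fit. Filled circles were called, open circles were not, diamonds are BMP2 values without a test, and the grey band marks changes under 1.5-fold. SMAD7 lies above the band and ID3 below it in all 6 lines, and ID4 lies above it in 4 lines and below it in the MLL1-KO lines.

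The ID genes, the most used readout of BMP signaling, followed 3 different patterns. ID1 was lower in the SAP30-KO lines and in the SIN3A/3B-DKO lines, ID3 was lower in every edited line, and ID4 was higher in 4 lines and lower in the MLL1-KO lines. The 250 bases before the start of ID1, ID3, and ID4 are shown here, since these genes share a family and a known regulator and yet moved differently. The sequences are from RefSeq (GRCh38.p14), where 8 of the 10 members had an entry and BMP2 and NOG had none, and each was found unchanged in GRCh37. They run from chr20:30192842-30193091 (plus strand) for ID1, chr1:23885993-23886242 (minus strand) for ID3, and chr6:19837351-19837600 (plus strand) for ID4. Capitals mark matches to CAGAC or its reverse complement GTCTG, a short element bound by SMAD4, or to GGCGCC, a GC-rich element bound by SMAD1 and SMAD5, with both strands searched.
ID1 promoter: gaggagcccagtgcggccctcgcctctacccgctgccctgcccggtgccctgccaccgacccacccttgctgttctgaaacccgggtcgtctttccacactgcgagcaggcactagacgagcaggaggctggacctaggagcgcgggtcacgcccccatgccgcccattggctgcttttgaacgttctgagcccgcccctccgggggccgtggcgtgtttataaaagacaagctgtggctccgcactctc
ID3 promoter: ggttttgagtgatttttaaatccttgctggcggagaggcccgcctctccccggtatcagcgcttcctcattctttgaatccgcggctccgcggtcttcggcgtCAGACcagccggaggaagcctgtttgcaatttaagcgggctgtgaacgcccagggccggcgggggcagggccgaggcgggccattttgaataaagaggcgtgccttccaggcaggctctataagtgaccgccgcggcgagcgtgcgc
ID4 promoter: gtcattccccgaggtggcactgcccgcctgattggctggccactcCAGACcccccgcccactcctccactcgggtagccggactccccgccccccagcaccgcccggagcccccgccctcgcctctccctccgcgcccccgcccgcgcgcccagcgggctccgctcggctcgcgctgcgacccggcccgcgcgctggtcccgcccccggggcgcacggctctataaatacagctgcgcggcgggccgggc
ID1 held neither motif in this window, and ID3 and ID4 held 1 match to CAGAC each, starting 147 and 205 bases before the start. Of 34943 promoters in the same window, 38.0% held CAGAC or GTCTG and 16.4% held GGCGCC. G and C made up 66.0%, 62.0%, and 78.8% of the bases of the 3 sequences. These are matches of letters only, and elements outside the window were not searched.

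ID1, whose promoter is the first of those shown, was the most abundant ID gene of parental cells. It lies on chromosome 20 (GRCh37, chr20:30193086-30194318, plus strand). Parental libraries had 45.3 and 50.2 TPM. SAP30-KO1 had 26.6 and 24.4 TPM, while SAP30-KO2 had 23.9 and 25.3. SIN3A/3B-DKO1 had 24.3 and 25.1 TPM, while SIN3A/3B-DKO2 had 24.97 and 24.4. The 8 libraries overlapped one another and none reached the parental range. ID1 fell in all 4 lines, by 0.89 to 0.94 on the log2 scale (SE 0.06, adjusted p from 3.94e-07 to 6.27e-07). MLL1-KO1 had 43.1 and 42.2 TPM and MLL1-KO2 34.8 and 34.4, also below the parental libraries but closer to them. The log2 differences there, -0.16 (-0.29 to -0.03, adjusted p = 0.0407) and -0.46 (-0.59 to -0.33, adjusted p = 5.16e-05), did not reach 1.5-fold. Against parental cells, ID1 was thus not higher in the MLL1-KO lines, in which BMP2 was highest. It was higher there than in the SAP30-KO lines (log2 0.61) and in the SIN3A/3B-DKO lines (0.63).

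ID3 was nearly lost from all edited lines. It lies on the minus strand of chromosome 1 (GRCh37, chr1:23884417-23885992). Parental libraries had 6.17 and 5.76 TPM, or 55 and 50 reads. SAP30-KO1 had 0.561 and 0.624 TPM and SAP30-KO2 had 0.483 and 0.296. MLL1-KO1 had 0.792 and 0.704 TPM and MLL1-KO2 had 0.238 and 0.225. The libraries of SIN3A/3B-DKO1 (1.05 and 0.399 TPM) and SIN3A/3B-DKO2 (0.575 and 1.17 TPM) were the least alike. All 12 edited libraries lay below both parental ones, with MLL1-KO2 lowest. ID3 passed the filter on low values through the parental libraries and 1 library of each SIN3A/3B-DKO line, so its calls against parental are descriptions. The fall ranged from -2.27 in SIN3A/3B-DKO2 to -3.14 in MLL1-KO2 (SE 0.27). The depth behind these values is low, with 18 reads over both libraries of SIN3A/3B-DKO2 and 4 over those of MLL1-KO2 against 105 in parental cells, or 6.75 (exact 95% interval 4.07 to 11.8) and 25.2 (9.54 to 94.0) times fewer per library total.

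ID4 gave the widest differences between genotypes among the members tested. It lies on chromosome 6 (GRCh37, chr6:19837601-19842428, plus strand). Parental libraries had 9.47 and 7.99 TPM. SAP30-KO1 had 91.3 and 92.7 TPM and SAP30-KO2 94.8 and 90.3, which were 10.5 and 10.6 times the parental mean. SIN3A/3B-DKO1 had 54.3 and 55.2 TPM and SIN3A/3B-DKO2 41.9 and 41.6, or 6.27 and 4.78 times the parental mean. MLL1-KO1 had 1.42 and 1.06 TPM and MLL1-KO2 1.03 and 0.718, or 7.03 and 10.0 times below it. The 3 genotypes and the parental cells did not overlap in any library. ID4 rose by 3.33 and 3.34 on the log2 scale in the SAP30-KO lines (SE 0.12, adjusted p = 1.23e-08 and 9.29e-09) and by 2.59 and 2.20 in the SIN3A/3B-DKO lines (adjusted p = 5.64e-08 and 1.86e-07). It fell by 2.41 and 2.75 in MLL1-KO1 and MLL1-KO2 (adjusted p = 2.56e-08 and 8e-09). The median of its neighbouring genes differed from parental there by -0.37 and -0.23. ID2, the remaining ID gene, had 0 to 7 reads in a library, at most 0.626 TPM, and no group stood apart.

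The ID mRNA of the cells thus changed its make-up. In parental cells ID1 to ID4 added up to 61.0 and 64.3 TPM, with 74.2% and 78.1% from ID1 and 15.5% and 12.4% from ID4. In the SAP30-KO lines the sum was 116.5 to 119 TPM, of which ID4 made up 77.1% to 79.4%. The SIN3A/3B-DKO lines lay between, with sums from 67.3 to 80.8 TPM and ID4 shares from 61.7% to 68.3%. The MLL1-KO lines had the lowest sums, 44.4 to 45.9 TPM for MLL1-KO1 and 35.5 to 36.1 TPM for MLL1-KO2, and ID1 made up 94.0% to 96.8% of them. The MLL1-KO lines, highest in BMP2, had the least ID mRNA in sum, and the SAP30-KO lines, with the most, had 1 to 3 reads of BMP2 in a library. That order did not hold throughout. The SIN3A/3B-DKO lines, with 0 reads of BMP2, had sums between those of parental cells and of the SAP30-KO lines. This comparison of the 7 conditions is a description.

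**Figure D4:**
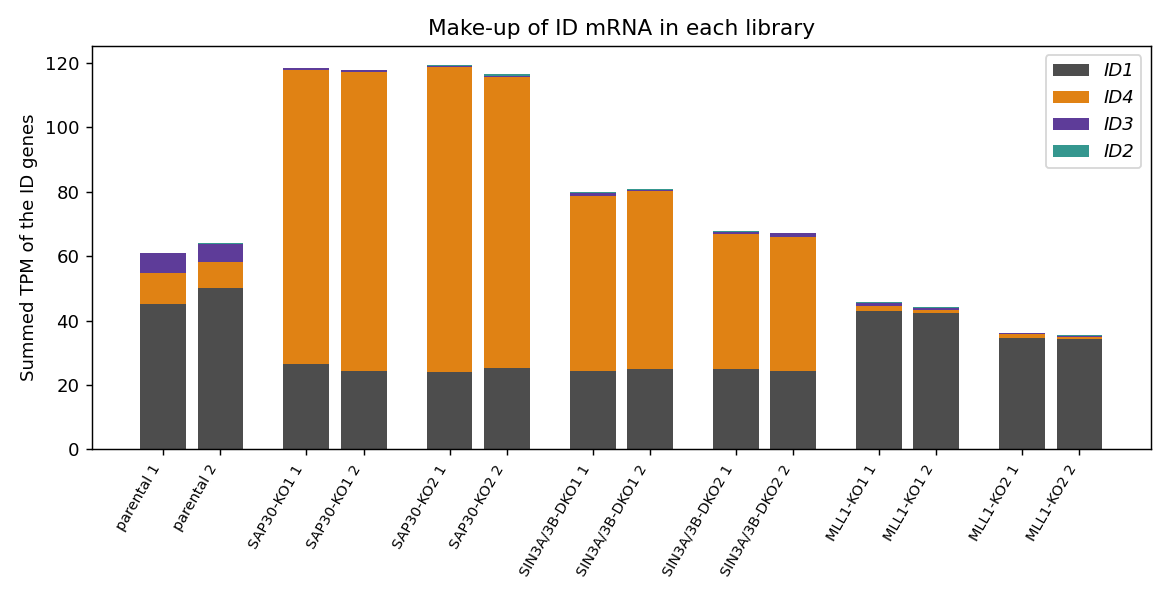
Summed TPM of ID1, ID2, ID3, and ID4 in each library (stacked bars from 0), with the replicate number after the name of the condition. ID1 made up most of the sum in parental and MLL1-KO cells, ID4 made up most of it in the other 4 lines, and the sums ran from 35.5 TPM in MLL1-KO2 to 119 TPM in SAP30-KO2.

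Comparing the mean of both lines of one genotype with that of another leaves the parental libraries out of the difference. They still enter the error of the fit and the filter on low values. Between MLL1-KO and SAP30-KO cells, 6 of the 7 members were called, beside 19.8% of all genes tested. ID4 was lower in MLL1-KO cells by a log2 difference of -5.91 (SE 0.08, adjusted p = 1.3e-12) and SMAD6 by -1.32 (adjusted p = 3.49e-09), while BMP4 (1.06), SMAD7 (0.99), NOG (0.93), and ID1 (0.61) were higher, with adjusted p values from 3.74e-11 to 1.26e-05. The call of ID1 was lost without the second SAP30-KO1 library, at 0.58. For ID3 the difference was -0.04 (-0.46 to 0.38).

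Between MLL1-KO and SIN3A/3B-DKO cells, 4 members were called, beside 19.9% of all genes. ID4 was lower in MLL1-KO cells (-4.97, adjusted p = 3.05e-12), and SMAD7 (1.79), BMP4 (1.20), and ID1 (0.63) were higher. NOG differed by -0.04 (-0.14 to 0.06) and SMAD6 by 0.19 (0.07 to 0.32), both within 1.5-fold. Between SIN3A/3B-DKO and SAP30-KO cells, 4 members were called, beside 7.47%. SMAD6 (-1.52, adjusted p = 7.83e-09), ID4 (-0.94), and SMAD7 (-0.80) were lower and NOG (0.97) was higher in the SIN3A/3B-DKO cells. ID1 differed by -0.02 (-0.11 to 0.07) between them. SMAD6, ID4, SMAD7, and NOG therefore separated cells edited in the SIN3 scaffolds from cells without SAP30, and ID1 did not.

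Between SAP30-KO2 and SAP30-KO1, 0 of the 7 were called by limma, beside 0.148% of all genes, with 1 (NOG) at an unadjusted p under 0.05 and 0 called by voom on the recovered reads. Between SIN3A/3B-DKO2 and SIN3A/3B-DKO1, 0 were called by limma, beside 2.23%, with 3 at an unadjusted p under 0.05 and 0 by voom. The MLL1-KO lines were less alike. Between MLL1-KO2 and MLL1-KO1 the share of all genes called was 10.4%, and 2 of the 7 were called by limma and 2 by voom, with 6 at an unadjusted p under 0.05. SMAD6 (-1.02, SE 0.08, adjusted p = 2.65e-06) and ID3 (-0.77, SE 0.27, adjusted p = 0.0402) were lower in MLL1-KO2, the line with the higher MLL1 mRNA, whose part in this was not tested. Differences under 1.5-fold that passed the adjusted threshold were those of NOG (0.56, adjusted p = 6e-05), BMP4 (0.19, adjusted p = 0.00111), ID1 (-0.30, adjusted p = 0.00217), and ID4 (-0.34, adjusted p = 0.0392). BMP2, which has no test here, was 1.10 higher on the log2 scale in MLL1-KO2. The difference of ID3 missed the adjusted threshold when any 1 of 8 libraries was left out, those of parental, SAP30-KO1, MLL1-KO1, and MLL1-KO2 cells, with values from -0.82 to -0.72, and also with a pseudocount of 1 or quantile normalization.

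The other genes of the pathway gave 36 genes tested out of 66 listed, of which 59 were in the table and 23 were below the filter. With loss of SAP30, 10 of the 36 fell and 1 rose in both lines, beside 6.79% and 6.17% of all genes tested. In the SIN3A/3B-DKO lines 8 fell and 1 rose, beside 5.99% and 4.70%. With loss of MLL1 11 fell and 2 rose, beside 11.4% and 5.00%. Genes called lower in all 6 lines were 2.67% of all genes tested and those called higher in all 6 were 0.945%, and 5 and 1 of the 36 genes were. TCF4 passed the filter on low values through the 2 parental libraries alone and SMAD9 through these and 1 edited library, so both had to differ, and their calls are descriptions. BMPR1B passed it through the 2 parental and 3 edited libraries, and its calls are descriptions too. The median log2 change of the 36 was -0.11, -0.14, and -0.19 in that order, beside the medians of 0.02, 0.00, and -0.06 over all genes given above. Among the 10 other ligands in the table, BMP8B alone passed the filter, at 2.91 TPM in parental cells. It fell to 1.26 and 1.40 TPM in the SIN3A/3B-DKO lines and to 0.147 and 0.227 TPM in the MLL1-KO lines, with 1.85 TPM in SAP30-KO1 (not called) and 1.28 TPM in SAP30-KO2 (called).

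Of the receptors and co-receptors, 1 of 7 tested fell in all 6 lines, beside 2.67% of all genes tested, and none rose in both lines of a genotype. The 1 that fell was BMPR1B, a type I BMP receptor, with 3.59 ± 0.218 TPM (SD, n = 2) in parental cells and 0.680 to 1.29 TPM in the lines (log2 -1.19 to -1.81). Its calls are descriptions, since among the edited libraries only 3 reached 1 TPM. The co-receptor RGMB, the most abundant gene of the group at 84.7 TPM, rose in MLL1-KO2 to 147 TPM (log2 0.80, adjusted p = 1.14e-08), and its values in the other lines were 81.4 to 108 TPM. Of the 11 transducers and regulators tested, SMAD9, a receptor-activated SMAD, was lower in all 6 lines, at 0.353 to 0.867 TPM against 1.65 TPM in parental cells. SMAD1, another of them, fell in both SAP30-KO lines from 10.9 to 6.99 and 6.51 TPM. It was at 6.86 TPM in SIN3A/3B-DKO1 (log2 -0.63, called) and at 7.13 TPM in SIN3A/3B-DKO2 (-0.58, below the fold minimum). The MLL1-KO lines had 9.38 and 12.5 TPM of SMAD1 and no call. SKIL, a repressor of SMAD activity, rose in the MLL1-KO lines from 12.4 to 19.3 and 22.4 TPM.

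Of the 8 other antagonists tested, 5 fell and 1 rose in both MLL1-KO lines, beside 11.4% and 5.00% of all genes. FST, which encodes the activin and BMP binding protein follistatin, fell from 133 ± 3.51 TPM to 28.3 ± 0.717 (MLL1-KO1) and 15.2 ± 1.11 TPM (MLL1-KO2; SD, n = 2), log2 changes of -2.22 and -3.09 with adjusted p = 1.47e-09 and 8.43e-11, and to 74.1 and 74.7 TPM in the SAP30-KO lines. In the SIN3A/3B-DKO lines it had 162 and 154.6 TPM, log2 differences of 0.28 and 0.21 (adjusted p = 0.00774 and 0.0377) that did not reach 1.5-fold. CRIM1, a membrane protein that binds BMPs, fell from 498 to 180.4 and 167 TPM in the MLL1-KO lines, and BMPER from 1.18 to 0.172 and 0.0432 TPM. TWSG1 and NBL1 fell there too, while NOG rose. NBL1 was called lower in all 6 lines (log2 -0.92 to -1.13), and TWSG1 also in SAP30-KO2 (-0.60) and SIN3A/3B-DKO1 (-0.62). FSTL3, a relative of FST, fell in the SAP30-KO lines (log2 -1.28 and -1.49) and in the SIN3A/3B-DKO lines (-1.33 and -1.08), with -0.51 and -0.37 in the MLL1-KO lines, which were not called. CHRDL1, a chordin-like antagonist, rose in all 6 lines, from 26.7 TPM to 72.5 to 85.0 TPM (log2 1.43 to 1.65). The median of the neighbouring genes of CHRDL1, on the log2 scale, differed from parental by 0.42 to 0.75 in these lines.

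Among 6 other known targets tested, GATA2 fell in all 6 lines, from 15.5 TPM to 9.34 to 9.53 TPM in the SAP30-KO lines and the SIN3A/3B-DKO lines and to 2.97 and 0.662 TPM in MLL1-KO1 and MLL1-KO2. MSX2 fell from 4.57 TPM to 1.85 and 0.882 TPM in the MLL1-KO lines, and in the SAP30-KO lines to 2.19 and 1.86 TPM. It was called lower in SIN3A/3B-DKO1 (2.30 TPM, log2 -0.86) and not in SIN3A/3B-DKO2 (4.84 TPM, 0.08). HES1, at 44.5 TPM in parental cells, fell with loss of SAP30 (28.9 and 25.7 TPM) and in SIN3A/3B-DKO cells (14.7 and 17.7 TPM), while MLL1-KO1 had 47.5 TPM and MLL1-KO2, where it was called, 27.3. None of the 6 rose in both lines of a genotype. Of the E proteins, the partners of ID proteins, TCF4 had 5.08 TPM in parental cells and 0.135 to 0.569 TPM in the 6 lines (log2 -2.39 to -3.14), and TCF12 stayed between 54.4 and 60.7 TPM with no call.

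**Figure D5:**
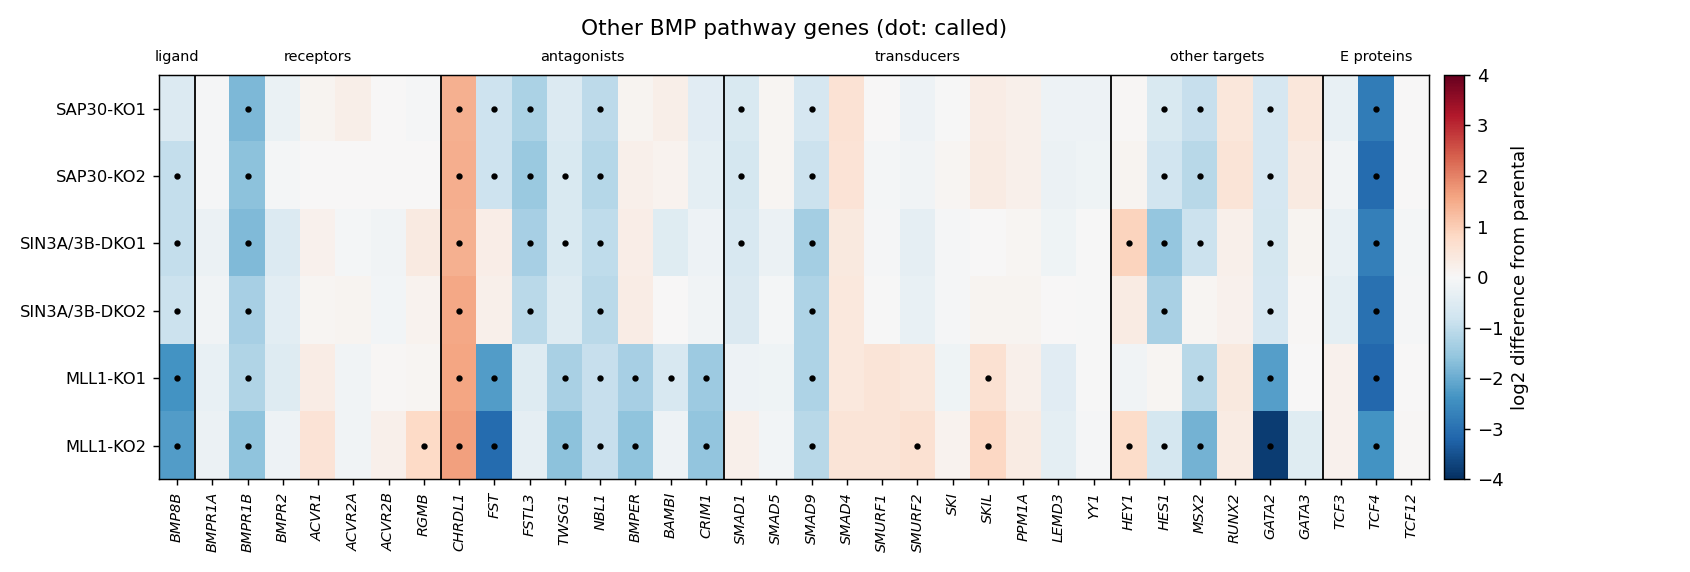
Log2 difference from parental cells (color, blue lower and red higher) of the 36 other pathway genes tested, in columns by role, in the 6 edited lines. Dots mark genes called. BMPR1B, NBL1, SMAD9, GATA2, and TCF4 were called lower and CHRDL1 higher in all 6 lines, and FST, CRIM1, BMPER, and GATA2 reached their lowest values in the MLL1-KO lines.

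The genes whose levels followed BMP2 most closely over the 7 conditions were EPHB2, HIC1, MYH16, TH, and TMCC3, with Pearson correlations of log2(TPM + 0.5) from 0.994 to 0.996. They share with BMP2 a higher level in the MLL1-KO lines, such as 21.6 and 24.1 TPM of MYH16 against 1.80 TPM in parental cells. Of the members, BMP4 (0.93) and SMAD7 (0.77) were most like BMP2 and ID4 (-0.93) least. ID3, which among the members other than BMP2 had the largest mean change over both MLL1-KO lines, was most like B3GNT9, RPL23, USP10, GOT2, and LOC100131096 (0.987 to 0.991), genes that were lower in all edited lines than in parental cells. The correlations rest on 7 points that share the parental comparison, were picked from 13540 genes, and are descriptions.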

How the data were processed

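The authors sequenced mRNA libraries (KAPA mRNA HyperPrep kit) from 7 conditions of MDA-MB-231 cells, 2 libraries each, and deposited 1 table of unpooled values per gene. The submitters' processing notes name FastQC 0.11.2, TopHat, featureCounts, and the hg19 build, and the gene annotation is not given in the sources used here. The authors named the deposited values RPKM, but each library adds up to 1000000, so they were used as TPM, for which the test written for RPKM was kept. TPM show no difference in total RNA. Whole reads were recovered for 18519 of 18519 genes with a value above 0 (100.0%, tolerance 0.02 reads). There were 28 gene names turned into dates, and these genes were kept but not named.

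Values were fitted as log2(TPM + 0.5) with limma 3.58.1 in R 4.3.3 over all 14 libraries (7 residual and 3.6 prior degrees of freedom, variance trend), for 13540 genes with at least 1 TPM in at least 2 libraries. Calls needed a Benjamini-Hochberg adjusted p under 0.05 over all genes tested and a 1.5-fold change, and 95% intervals came from the errors of that fit. Its calls were tested on simulated data, with changes only in genes above low levels, and the intervals were not tested. Floors of 3 reads and read intervals cover counting error only. Members and pathway lists were chosen with earlier results of these data known. All members are named, with the targeted genes. In each list up to 4 genes called in both lines of a genotype are named, by the size of the change and filled up to 2 by level where fewer were called, and 5 genes most like BMP2 and ID3. FSTL3, TWSG1, and NBL1 were named after their values were seen. Alternatives were other pseudocounts, filters, scalings, and fold minimums, only the 4 libraries compared, and the replicate number as a block. Others were each library left out, limma's voom on recovered reads, and subtraction of a running median of neighbouring genes. That median was taken per library over a window of 51 genes without the gene itself (12152 tested genes with a GRCh37 position, GENCODE release 44). Tables were made in Python 3.11.15 with pandas 2.3.3 and scipy 1.17.1, and plots with matplotlib 3.10.9.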

Additional observations from a re-analysis of the deposited data

Results flagged for a closer look

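Between the MLL1-KO lines, 2 members differed by the direct test of line 2 against line 1. SMAD6 was lower in MLL1-KO2 by a log2 difference of -1.02 and ID3 by -0.77. The ID3 difference rested on 15 reads in MLL1-KO1 and 4 in MLL1-KO2, and missed the adjusted threshold in several of the alternatives given above. The MLL1 mRNA level of the lines differed as well, 16.6 ± 1.13 TPM in MLL1-KO1 and 26.7 ± 1.35 TPM in MLL1-KO2 (SD, n = 2). Its part in these differences was not tested. No member was called between the lines of the other genotypes by limma.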

How the results depend on the processing

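The counts of members other than BMP2 called in both lines were 2 lower and 3 higher with loss of SAP30, 4 and 3 in the SIN3A/3B-DKO lines, and 2 and 2 with loss of MLL1. With a 2-fold minimum the number lower was 1 in the SAP30-KO lines and 1 in the SIN3A/3B-DKO lines, since fewer changes reach that size. The number higher was then 2 in each of these genotypes. Subtraction of the median of neighbouring genes gave 3 lower and 2 higher in the SAP30-KO lines. Leaving out 1 library gave 2 to 3 lower in the SAP30-KO lines and 2 to 3 higher in the SIN3A/3B-DKO lines. With the replicate block the counts were the same, 2 and 3, 4 and 3, and 2 and 2. Libraries with the same replicate number did not deviate together (mean correlation 0.01 over 21 pairs of groups, from -0.07 to 0.08), so they share only a number.

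Of 1384 alternative values for 60 named log2 differences, 1336 were counted as the same. For the members tested, these kept their direction and side of the threshold. For BMP2, which has no call, they moved by less than the spread of the libraries. Another 27 lost a call (14 of them with the 2-fold minimum), 13 gained one, and 7 were BMP2 values that moved by more than that spread. The remaining 1 turned, SMAD6 in MLL1-KO1 (0.05 with quantile normalization, not called either way). That scaling moved the median of all genes by 0.13 in MLL1-KO1 and lowered the share of calls that were lower from 70.3% to 51.6% there and from 59.3% to 48.4% in MLL1-KO2. The log2 value of BMP2 ranged from 3.82 to 5.60 in MLL1-KO1 and from 4.90 to 6.70 in MLL1-KO2, depending on the pseudocount and on voom. GREM1, ID2, and ID3 had too few reads for precise values at this depth.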
